A study of Mus musculus with 22 samples.

Results

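Granulation tissue of WT mice at 14 d was compared with that at 7 d on the 6 arrays of the first hybridization series that carry these labels, 3 of 14 d and 3 of 7 d, out of 22 arrays in the study. The arrays were chosen by genotype, day and hybridization series as labelled, and every probe set other than the 64 array controls was examined, so that the description covers 45037 probe sets and 18193 named genes. The WT mice descended from backcrossed *Mmp13* heterozygotes and are labelled C57BL/6 x 129 mixed, while the design text describes a line backcrossed into C57BL6. They were males of 5 to 8 weeks, and in each mouse a viscose cellulose sponge of 5 x 5 x 10 mm had been placed under the dorsal skin, where it fills with new tissue from its surface inwards. RNA from the ends of the sponge, 2 µg for each array, was labelled by a one-cycle protocol. Each array is of its own mouse by the design text. A further WT array of 14 d, replicate 4, was made in the second series from less RNA with another kit. That series holds no array of 7 d, so replicate 4 was kept out of the comparison and its values are given only beside it.

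Granulation tissue is the transient connective tissue of a healing wound. Leukocytes enter it first and release cytokines and proteinases, fibroblasts and new vessels follow, and part of the fibroblasts become contractile myofibroblasts. With time the loose early matrix of fibronectin and thin collagen fibrils is remodelled by matrix metalloproteinases (MMPs) and joined by cross-linked collagens, small proteoglycans that space the fibrils, and elastic fibres. The comparison asks how the RNA of this tissue differed between the second and the first week after implantation. A sponge holds many cell types, and fewer cells of a type and less RNA per cell cannot be told apart in it.

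The deposited values are log2 signals normalized by RMA. Differences are given as 14 d minus 7 d on the log2 scale, and where several probe sets carry only 1 gene's symbol, the one with the highest mean signal stands for it. The 6 WT arrays were tested in a limma fit with the 6 *Mmp13*-/- arrays of the same days and series, so that 4 groups share 1 estimate of the spread. A gene or probe set is called when its Benjamini-Hochberg adjusted p over all 45037 probe sets is under 0.05. All adjusted p-values below come from that fit unless another is named. Signals on a day below 4.22, the median of the probe set means, were not shown to lie above background, and the size of a difference measured against such a signal is uncertain. With 3 arrays against 3, a two-sided exact permutation test cannot give a p below 0.1, so single genes rest on the limma fit. Arrays of the same day correlated at r = 0.984 to 0.996 over all probe sets and arrays of different days at r = 0.982 to 0.991. WT 7 d replicate 1 stood apart in several tissue components, which are given with the vessel and contractile genes below.

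The 15 largest called rises at 14 d were mostly of extracellular matrix genes and of 5 granzymes. The inflammatory genes *Il6*, *Ptgs2* and *Cxcl1* were among the 15 largest called falls. Of the probe sets, 646 were higher and 449 lower at 14 d, 1.43% and 0.997% of those tested. By gene, 636 were called, 360 higher and 276 lower, or 1.98% and 1.52% of all genes. The counts of the gene lists below are to be read against these shares. In all, 99 genes rose and 36 fell by over 1 log2, and 23 rose and 3 fell by over 2 log2. Of probe sets over 1 log2 at an unadjusted p under 0.05, 307 were higher and 111 lower with all arrays, and 235 were higher and 218 lower without that array, where 761 probe sets were called higher and 793 lower. The median called rise was 0.73 and the median called fall was -0.57, against a median of -0.00333 over all genes. All 1095 called probe sets had 14 d arrays that did not overlap the 7 d arrays, as did 17.4% of all probe sets (8.36% with every 14 d array above and 9.02% with every 14 d array below). With the 6 WT arrays fitted alone, 285 probe sets were called (184 higher and 101 lower, 0.633% of those tested), and 270 of these are among the 1095.

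**Figure D1:**
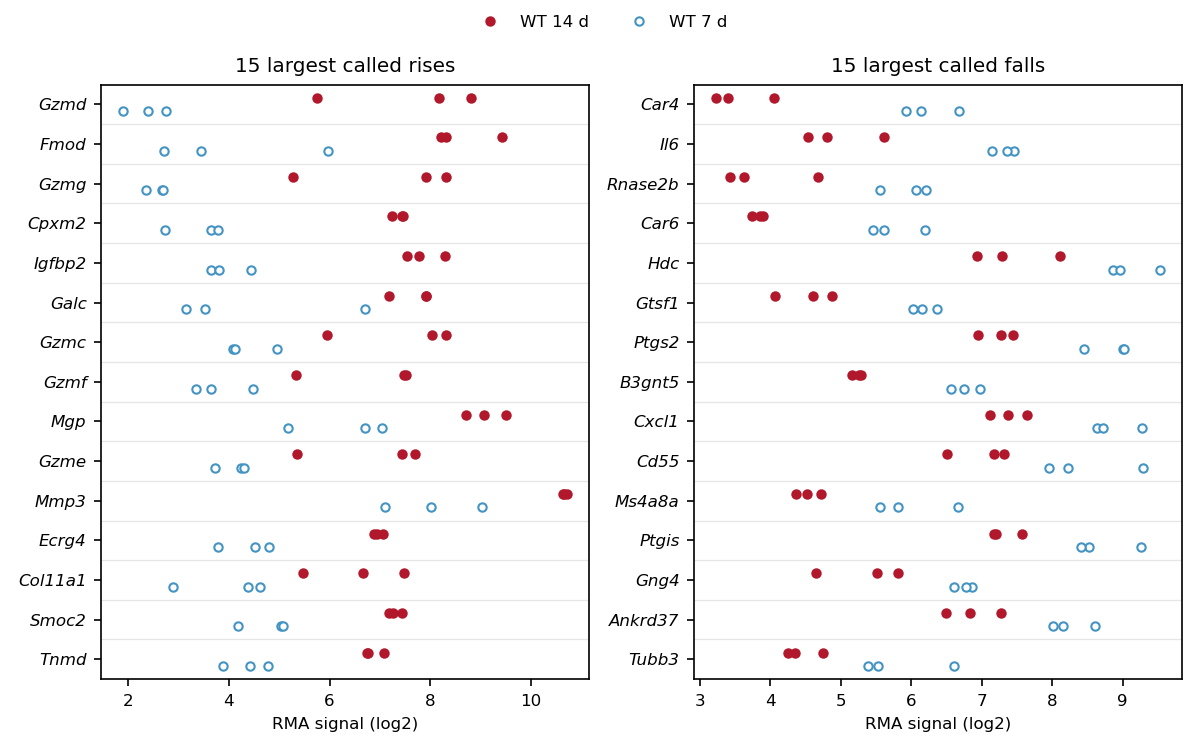
RMA signal (log2, x axis) of the 15 genes with the largest called rises (left) and the 15 with the largest called falls (right) on each WT array. Filled points are 14 d arrays and open points 7 d arrays, and in no row do they overlap, which the choice of genes requires.

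The largest called changes outside the granzymes were rises of *Fmod*, *Cpxm2*, *Igfbp2* and *Galc*, the last of which is given with the other genotype below. *Fmod*, encoding fibromodulin, a small proteoglycan that binds collagen fibrils, had 8.21, 8.31 and 9.43 at 14 d, against 2.71, 5.97 and 3.45 at 7 d. It rose by 4.61 (standard error 0.74, adjusted p = 0.00934), and each of its 6 probe sets passed. Of the 7 d arrays replicate 2 was the highest and still lay below every 14 d array. *Igfbp2*, encoding a binding protein of insulin-like growth factors, had 8.29, 7.78 and 7.54 at 14 d and 3.65, 4.45 and 3.81 at 7 d, a rise of 3.90 (standard error 0.28, adjusted p = 0.000141). *Cpxm2*, a member of the carboxypeptidase family without known enzyme activity, had 7.44, 7.46 and 7.23 at 14 d and 2.74, 3.65 and 3.79 at 7 d and rose by 3.98 (adjusted p = 0.000141). Both of its probe sets were called. These 3 calls were kept with each of the 6 WT arrays left out in turn (adjusted p of at most 0.0476 for *Fmod*). *Fmod* was not called with the 6 WT arrays alone (adjusted p = 0.0575).

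Elastic fibre genes were the matrix group with the highest share of calls. Of 15 measured members 6 rose and none fell, with a median difference of 0.67, where 1.98% of all genes were called higher and 1.52% lower. *Eln*, encoding elastin itself, had 7.18, 7.84 and 7.73 at 14 d and 5.81, 6.13 and 5.84 at 7 d, a rise of 1.66 (standard error 0.21, adjusted p = 0.00329). *Mfap4*, a microfibril-associated protein, had 7.95, 7.70 and 7.77 at 14 d and 4.96, 5.86 and 6.29 at 7 d and rose by 2.10 (adjusted p = 0.00326). The microfibril gene *Mfap2* rose by 0.91 (adjusted p = 0.00318) while *Fbln1*, encoding fibulin-1 of basement membranes and elastic fibres, by 1.22 (adjusted p = 0.00065). *Fbn2*, the fibrillin of early microfibrils, rose by 1.56 (adjusted p = 0.0202) and *Emilin1*, a glycoprotein at the elastin surface, by 0.67 (adjusted p = 0.0103). With the 6 WT arrays alone 5 of the 6 were called. The call of *Fbn2* was lost without WT 14 d replicate 2 or 3 (adjusted p up to 0.0908) and that of *Emilin1* without WT 14 d replicate 3 (adjusted p = 0.0512), and the other 4 were kept without any single array.

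**Figure D2:**
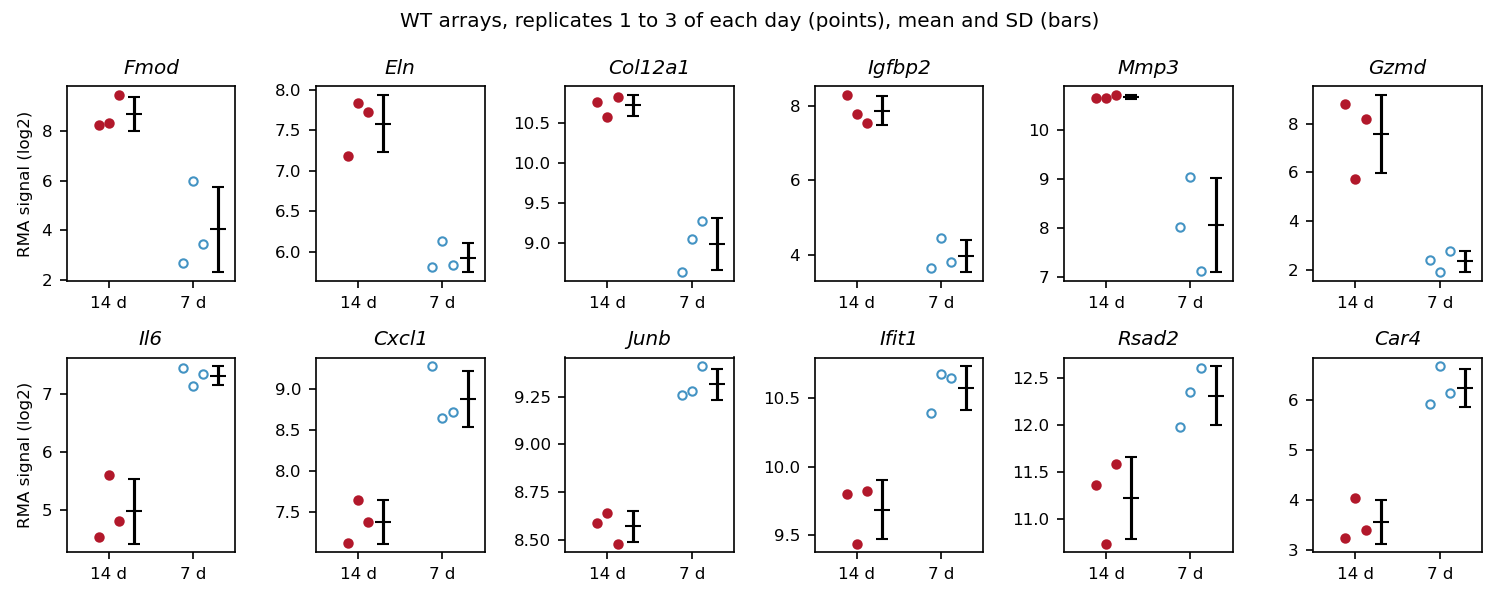
RMA signal (log2) of 12 genes on the WT arrays, with 14 d to the left of 7 d. Points are the 3 arrays of a day and the bars give their mean and SD, and the upper row holds genes that rose at 14 d and the lower row genes that fell.

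Of 11 fibrillar collagens 1 was called and of 23 other collagens 4, all of them higher at 14 d. Of all genes 1.98% were called higher and 1.52% lower, and both lists had a median difference of 0.28. *Col12a1*, which encodes a collagen on the surface of type I fibrils, had 10.77, 10.58 and 10.83 at 14 d and 8.63, 9.05 and 9.27 at 7 d, a rise of 1.74 (standard error 0.15, adjusted p = 0.000345). *Col8a2*, a short-chain collagen, rose by 1.91 (adjusted p = 0.00305). Both calls were kept without any single array, though 1 of the 4 *Col12a1* probe sets was of the other sign (-0.19). *Col11a1*, which encodes a chain of a minor fibril collagen of cartilage and tendon, had 5.48, 6.66 and 7.47 at 14 d and 2.90, 4.39 and 4.63 at 7 d and rose by 2.56 (adjusted p = 0.0327). It was not called without WT 14 d replicate 2 or 3 or WT 7 d replicate 1 or 2 (adjusted p up to 0.126). The other 2 collagens called were *Col7a1*, the anchoring fibril collagen (0.95, adjusted p = 0.0457, lost without any 1 of the 6 arrays), and the transmembrane *Col23a1* (1.04, adjusted p = 0.0383, kept only without WT 7 d replicate 3).

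The major fibril collagens, chosen after their values were seen, were not called by their brightest probe sets. Those of *Col3a1* and *Col1a2* lay near 13.66, the highest value on the arrays, where a rise may not be measurable. *Col3a1* averaged 13.43 ± 0.05 at 14 d and 13.42 ± 0.05 at 7 d (SD, n = 3 each), and *Col1a2* 13.59 ± 0.06 at 14 d and 13.43 ± 0.07 at 7 d. The difference was 0.01 for *Col3a1* (standard error 0.06, adjusted p = 0.977). It was 0.15 for *Col1a2* (standard error 0.07, adjusted p = 0.319), whose 3 probe sets ranged up to 0.70 with none called. *Col1a1* had 10.80, 11.07 and 11.20 at 14 d and 10.50, 10.99 and 11.09 at 7 d (difference 0.16, adjusted p = 0.738), while the other of its 2 probe sets was called with a difference of 0.62.

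Of 10 small leucine-rich proteoglycans 3 rose, *Fmod*, *Bgn* (biglycan, 0.60, adjusted p = 0.00449, all 3 probe sets called) and the dim *Kera* (keratocan, 0.41, adjusted p = 0.0196, lost without WT 14 d replicate 2 or 3 or WT 7 d replicate 2). Of 23 matricellular and adhesive glycoproteins 4 rose. *Smoc2*, a calcium-binding matrix protein, had 7.26, 7.43 and 7.17 at 14 d and 4.19, 5.03 and 5.08 at 7 d, a rise of 2.52 (standard error 0.24, adjusted p = 0.000714). *Ccn5* rose by 1.35 (adjusted p = 0.00213), its relative *Ccn4*, a Wnt target, by 1.59 (adjusted p = 0.0159, lost without WT 14 d replicate 1 or 3) and *Vtn*, vitronectin, by 0.81 (adjusted p = 0.0297, lost without WT 14 d replicate 2 or 3 or WT 7 d replicate 3). *Tnmd*, tenomodulin, best known from tendon, had 6.76, 6.75 and 7.08 at 14 d and 3.89, 4.78 and 4.43 at 7 d and rose by 2.50 (adjusted p = 0.00396). *Mgp*, an inhibitor of calcification in matrix, rose by 2.78 (adjusted p = 0.0122, lost without WT 14 d replicate 2 or 3, up to 0.0508), and *Ecrg4*, which encodes a secreted peptide precursor, by 2.60 (adjusted p = 0.000345).

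Of 16 MMP genes measured 4 rose and none fell. *Mmp3*, stromelysin-1, which cleaves proteoglycans and activates other MMPs, had 10.64, 10.65 and 10.71 at 14 d, nearly the same on each array, and 8.02, 9.03 and 7.11 at 7 d. It rose by 2.61 (standard error 0.40, adjusted p = 0.00703). *Mmp11*, stromelysin-3, rose by 1.74 (adjusted p = 0.00786), and both calls were kept without any single array. The gelatinase *Mmp9* had 9.78, 9.30 and 7.80 at 14 d and 7.43, 6.89 and 6.92 at 7 d and rose by 1.88 (adjusted p = 0.0438, lost without WT 14 d replicate 1 or 2 or WT 7 d replicate 2 or 3, up to 0.145). The other gelatinase, *Mmp2*, rose by 0.56 (adjusted p = 0.0163, lost without WT 14 d replicate 3 or WT 7 d replicate 2 or 3). *Mmp13*, the collagenase that the study deleted in its other genotype, had 11.87, 11.58 and 11.68 at 14 d and 11.09, 10.72 and 10.26 at 7 d. Its difference of 1.02 (standard error 0.24, adjusted p = 0.0505) was not called, and without WT 7 d replicate 1 its adjusted p was 0.0228.

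The proteinase inhibitors that were called rose, as did the MMPs that were called. Of 19 inhibitors and plasminogen activators 5 rose and none fell, with a list median of 0.05. A negative difference was seen in 8, down to -1.42, and in 3 every 14 d array lay below every 7 d array, where 10.7% of all genes did so. A call lower was made for 1 member without dim probe sets, with a replicate block or without WT 14 d replicate 2. *Timp3*, the matrix-bound inhibitor of MMPs, had 8.42, 8.02 and 8.97 at 14 d and 6.65, 6.76 and 6.65 at 7 d, a rise of 1.78 (standard error 0.20, adjusted p = 0.00178), and each of its 4 probe sets was called. *Timp2* rose by 0.65 (adjusted p = 0.00632) and *Serping1*, the C1 inhibitor, by 0.90 (adjusted p = 0.00138). *Tfpi*, an inhibitor of coagulation, rose by 0.51 (adjusted p = 0.0119) and *Serpinf1*, encoding the anti-angiogenic PEDF, by 0.46 (adjusted p = 0.0127), and these last 2 calls were lost without WT 14 d replicate 1 or 3. *Timp1*, chosen after its value was seen, had a difference of -0.34 (adjusted p = 0.22). Of 15 ADAMTS proteinases *Adamts12* alone was called (1.23, adjusted p = 0.00347, 1 of 2 probe sets called and the other at 0.00333).

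**Figure D3:**
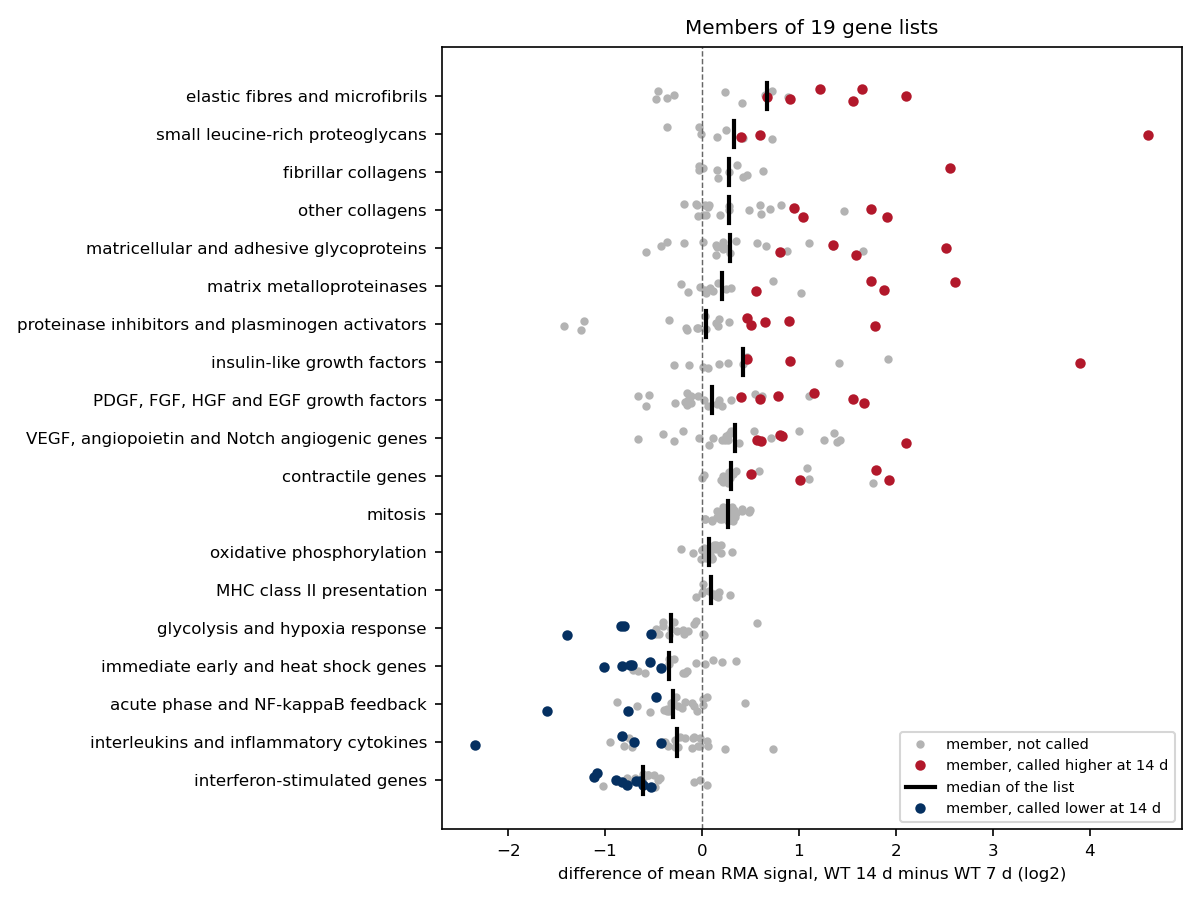
Difference of mean signal between WT 14 d and WT 7 d (log2, x axis) for the members of 19 gene lists (rows). Grey points are members not called, red points called higher and dark blue points called lower at 14 d, and the black bar is the median of the list. Red points stand in the matrix, proteinase, growth factor, angiogenic and contractile rows and blue points in the 5 lowest rows.

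Of 26 genes of the PDGF, FGF, HGF and EGF families 6 rose and none fell, and 11 had a negative difference. *Mdk*, midkine, a heparin-binding growth factor, had 7.03, 7.22 and 7.07 at 14 d and 5.22, 5.41 and 5.66 at 7 d, a rise of 1.68 (standard error 0.13, adjusted p = 0.000211). The PDGF receptor gene *Pdgfra*, a fibroblast marker, rose by 0.78 (adjusted p = 0.00213, 2 of 3 probe sets called and 1 of the other sign) and *Pdgfrl*, a related gene, by 1.15 (adjusted p = 0.00328), each kept without any single array. *Pdgfra* was the only 1 of 15 fibroblast markers called (6.67%), where 1.98% of all genes were called higher and 1.52% lower. Of these markers 9 had a negative difference, and the list median was -0.03. *Pdgfrb*, the receptor of pericytes and myofibroblasts, rose by 1.56 (adjusted p = 0.0276, lost without any 1 of the 14 d arrays, up to 0.116). *Egfr* (0.60, adjusted p = 0.0398) and *Fgfr1* (0.40, adjusted p = 0.0488) were called near the threshold. The call of *Egfr* was kept only without WT 7 d replicate 2, 1 of its 7 probe sets was called and 3 were of the other sign, and the mean over them had an adjusted p of 0.125. The call of *Fgfr1*, with 1 of 3 probe sets called, was lost without any 1 array.

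Of 13 genes of the insulin-like growth factor family 3 rose, *Igfbp2* as given, *Igfbp7* (0.91, adjusted p = 0.0396, lost without any 1 of the 14 d arrays or WT 7 d replicate 3) and the receptor *Igf1r* (0.46, adjusted p = 0.0432, lost without any 1 array, 1 of 5 probe sets called and 1 of the other sign). Of 27 Wnt ligands and antagonists 3 rose and 13 had a negative difference, and all 3 called are secreted antagonists or relatives of them. *Sfrp1*, which binds Wnt ligands, had 8.08, 8.02 and 7.51 at 14 d and 4.58, 5.89 and 5.85 at 7 d, a rise of 2.43 (standard error 0.34, adjusted p = 0.00455), and each of its 5 probe sets was called. *Dkk3* rose by 1.06 (adjusted p = 0.0079) and *Sfrp5* by 0.34 (adjusted p = 0.0383, lost without any 1 array). *Tgfb3* was the only 1 of 33 genes of TGF-beta and BMP signalling that was called (1.45, adjusted p = 0.0151, 0.0717 without WT 14 d replicate 3). That is 3.03% of the list, where 1.98% of all genes were called higher and 1.52% lower.

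The vessel, pericyte and contractile lists had positive median differences, and those of the vessel and pericyte lists were smaller without WT 7 d replicate 1. The mean signal of 18 endothelial markers was 6.87, 7.07 and 7.65 at 14 d and 5.24, 6.93 and 6.27 at 7 d, and that of 10 pericyte markers 7.33, 7.49 and 7.79 at 14 d and 6.00, 7.11 and 6.96 at 7 d. The lowest of each was WT 7 d replicate 1, and the endothelial means of the 2 days overlapped. The same array was low in 20 skeletal muscle genes, at 5.62 against 8.30 and 9.73 on the other 7 d arrays, with 8.41, 8.08 and 9.13 at 14 d. How far vessel, muscle and other tissue in the piece taken bears on these genes was not tested. Of the endothelial markers 2 rose, *Eng*, a co-receptor of TGF-beta (0.51, adjusted p = 0.0219, 0.0445 without WT 7 d replicate 1 and up to 0.0774 without WT 14 d replicate 2 or 3), and the transcription factor gene *Sox17* (1.76, adjusted p = 0.0438, 0.0292 without it, and lost without any 1 of the 14 d arrays or WT 7 d replicate 3, up to 0.16). The median difference of the list was 1.18, and 0.63 without WT 7 d replicate 1. The endothelial markers called numbered 8 without WT 7 d replicate 2 and 0 without WT 14 d replicate 2 or 3. The median of the pericyte list was 0.96, and 0.45 without WT 7 d replicate 1. *Pecam1*, chosen after its values were seen, had 7.37, 7.37 and 8.15 at 14 d and 5.14, 7.18 and 6.77 at 7 d (difference 1.27, adjusted p = 0.157).

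Among 26 angiogenic genes 5 rose and none fell. *Vegfb* rose by 0.57 (adjusted p = 0.00918) and *Vegfc*, the lymphangiogenic member, by 0.80 (adjusted p = 0.021, lost without WT 14 d replicate 1 or 3 or WT 7 d replicate 3). The receptor gene *Flt1* rose by 0.82 (adjusted p = 0.0297), the Notch ligand gene *Dll4* of vessel tips by 0.61 (adjusted p = 0.0444) and *Esm1*, a secreted proteoglycan of tip cells, by 2.11 (adjusted p = 0.0398). *Esm1* had 6.36, 6.49 and 6.98 at 14 d and 3.12, 5.23 and 5.16 at 7 d. Without WT 7 d replicate 1 the call of *Esm1* was kept (adjusted p = 0.0181) and those of *Flt1* and *Dll4* were lost (adjusted p = 0.053 and 0.0764), and each of these 3 was lost without any 1 of the 14 d arrays, *Flt1* and *Dll4* also without WT 7 d replicate 3. With the 6 WT arrays alone none of the 5 was called.

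Of 20 contractile genes 4 rose, and 12 had 14 d arrays that all lay above the 7 d arrays, as did 10% of all genes. The median difference was 0.30, and it was 0.25 without WT 7 d replicate 1 and 0.64 without WT 7 d replicate 3. No contractile gene was called without WT 14 d replicate 3. *Myl9*, a myosin light chain of smooth muscle and myofibroblasts, had 8.46, 8.20 and 8.95 at 14 d and 5.67, 6.96 and 7.18 at 7 d, a rise of 1.93 (standard error 0.33, adjusted p = 0.0122). *Tagln*, transgelin, had 9.42, 9.06 and 9.93 at 14 d and 6.53, 8.16 and 8.34 at 7 d and rose by 1.79 (adjusted p = 0.0347, lost without any 1 of the 14 d arrays, up to 0.138). *Itga8*, an integrin chain of contractile cells, rose by 1.01 (adjusted p = 0.0112, 1 of 2 probe sets called and the other at -0.02) and *Lmod1*, an actin nucleator of smooth muscle, by 0.51 (adjusted p = 0.0305, kept only without WT 14 d replicate 1). The calls of *Myl9* and *Itga8* were lost without WT 14 d replicate 3 (adjusted p = 0.0618 and 0.0562). *Acta2*, alpha smooth muscle actin, chosen after its values were seen, had 11.35, 11.13 and 11.82 at 14 d and 9.42, 10.44 and 11.13 at 7 d, so that the days touched at 11.13 (adjusted p = 0.13). Of 20 basement membrane genes *Col4a1* (1.82, adjusted p = 0.0494) and *Lama2* (0.52, adjusted p = 0.0303) were called. *Col4a1* had 11.02, 10.97 and 11.67 at 14 d and 8.12, 10.23 and 9.84 at 7 d. *Col4a1* was lost without any 1 of the 14 d arrays or WT 7 d replicate 3 (adjusted p up to 0.18) and *Lama2* was kept only without WT 7 d replicate 1, where the list had 4 calls. With the 6 WT arrays alone no contractile or basement membrane gene was called.

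**Figure D4:**
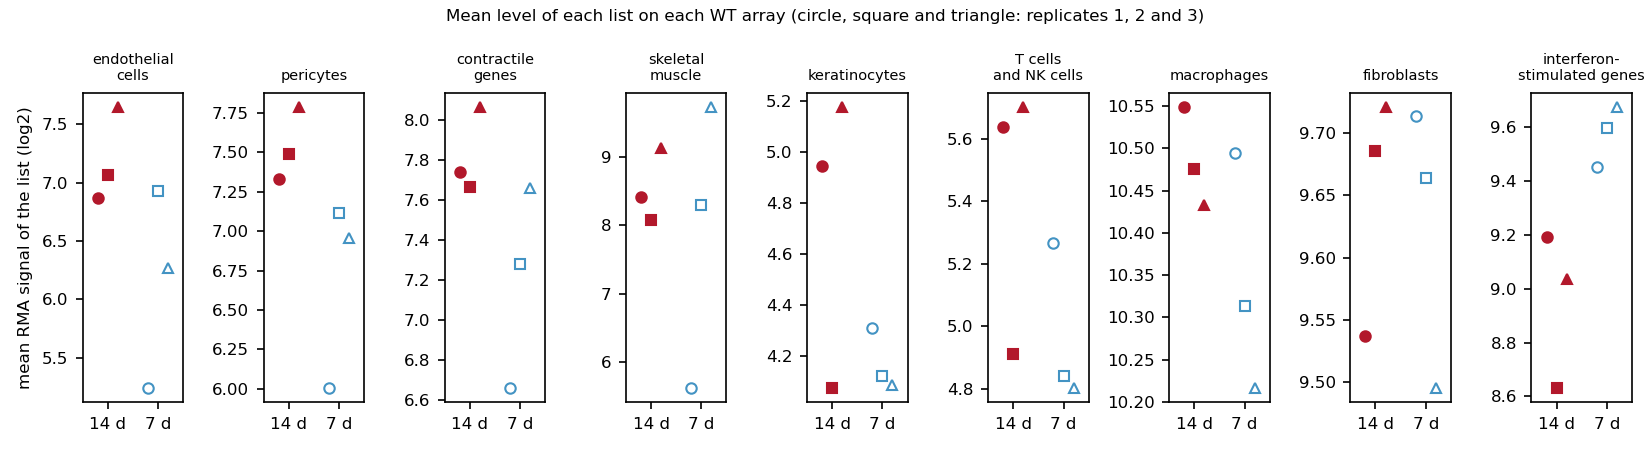
Mean RMA signal (log2) of 9 lists of genes on each WT array, with 14 d to the left of 7 d. Circle, square and triangle mark replicates 1, 2 and 3, each panel has its own scale, and WT 7 d replicate 1 (open circle) is the lowest array in the endothelial, pericyte, contractile and skeletal muscle panels.

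Granzymes of 1 gene cluster were called higher at 14 d. The cluster encodes serine proteinases of cytotoxic granules, and its members are close copies whose probe sets could share signal, so single members are uncertain. The 7 d signals of *Gzmd* and *Gzmg* lie near the lowest value on the arrays, 1.5, so that the size of these rises is uncertain. *Gzmd* had 8.80, 5.75 and 8.18 at 14 d and 2.40, 1.91 and 2.76 at 7 d, a rise of 5.22 (standard error 0.72, adjusted p = 0.0044). *Gzmg* had 8.31, 5.27 and 7.92 at 14 d and 2.68, 2.35 and 2.69 at 7 d and rose by 4.59 (standard error 0.69, adjusted p = 0.00694). On all 5 of *Gzmc*, *Gzmd*, *Gzme*, *Gzmf* and *Gzmg* the lowest 14 d array was replicate 2, which still lay above every 7 d array. *Gzmc*, *Gzmf* and *Gzme* rose by 3.04, 2.95 and 2.73 (adjusted p = 0.0245, 0.0227 and 0.0305), and these 3 calls were lost without WT 14 d replicate 1 or 3 or WT 7 d replicate 2, and for *Gzmc* and *Gzme* also without WT 7 d replicate 3 (adjusted p up to 0.125). The calls of *Gzmd* and *Gzmg* were kept without any single array.

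Other genes of cytotoxic cells, chosen after their values were seen, were higher on the same 2 arrays but overlapped between days. *Gzma* had 8.92, 6.38 and 8.69 at 14 d and 7.01, 6.39 and 6.35 at 7 d (adjusted p = 0.414), and *Prf1*, perforin, had 6.83, 4.92 and 6.49 at 14 d and 5.58, 4.60 and 4.99 at 7 d (adjusted p = 0.462). Of 22 T and NK cell markers *Gzmc* was the only 1 called (4.55%), where 1.98% of all genes were called higher and 1.52% lower. *Ncr1*, an NK cell receptor, had 3.83, 3.20 and 3.79 at 14 d and 3.78, 3.50 and 3.48 at 7 d, and *Cd3e* of the T cell receptor complex averaged 5.47 ± 0.12 at 14 d and 5.35 ± 0.15 at 7 d (SD, n = 3 each). The mean signal of 23 keratinocyte markers was also high on WT 14 d replicates 1 and 3, at 4.94 and 5.18, against 4.07 on replicate 2 and 4.09 to 4.31 at 7 d. Its part in the granzyme result was not tested.

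Of 26 interleukins and cytokines 4 fell and none rose. *Il6*, *Lif* and *Osm* were also called with the 6 WT arrays alone, and *Tnf* was not (adjusted p = 0.0968). *Il6*, the main inducer of the acute phase response, had 4.53, 5.61 and 4.80 at 14 d and 7.46, 7.14 and 7.36 at 7 d and fell by 2.34 (standard error 0.31, adjusted p = 0.00339), or 5.06-fold, and the call was kept without any single array. Its relatives *Osm* and *Lif* fell by 0.82 (adjusted p = 0.0227) and 0.70 (adjusted p = 0.0264), and *Tnf* by 0.42 (adjusted p = 0.0305). *Osm* was lost without WT 14 d replicate 1 or 3 or WT 7 d replicate 3, and *Lif* and *Tnf* were kept only without WT 7 d replicate 1. *Il1b*, chosen after its values were seen, had 9.11, 9.74 and 9.24 at 14 d and 10.55, 9.99 and 10.40 at 7 d (difference -0.95, adjusted p = 0.149).

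Of 15 CXC and 18 CC chemokines 2 fell and 1 rose, where 1.98% of all genes were called higher and 1.52% lower. *Cxcl1*, which attracts neutrophils, had 7.12, 7.65 and 7.38 at 14 d and 9.27, 8.64 and 8.72 at 7 d and fell by 1.49 (standard error 0.24, adjusted p = 0.00924), and the call held on each of its 3 probe sets and without any single array. *Ccl4*, which attracts monocytes and T cells, fell by 0.93 (adjusted p = 0.0173, lost without WT 14 d replicate 2 or 3 or WT 7 d replicate 2). *Cxcl12*, a stromal chemokine, had 11.50, 11.40 and 11.19 at 14 d and 9.93, 10.62 and 9.92 at 7 d and rose by 1.21 (adjusted p = 0.0187, lost without WT 14 d replicate 1 or 2 or WT 7 d replicate 3). *Ptgs2*, cyclooxygenase-2, had 7.27, 7.44 and 6.95 at 14 d and 8.45 to 9.02 at 7 d and fell by 1.60 (adjusted p = 0.0187, lost without WT 14 d replicate 1 or 3 or WT 7 d replicate 3), and *Ptgis*, prostacyclin synthase, fell by 1.42 (adjusted p = 0.0162, lost without WT 14 d replicate 1 or 3). *Ptger3*, a receptor of prostaglandin E, rose by 1.38 (adjusted p = 0.0151, 1 of 2 probe sets called, lost without WT 14 d replicate 1 or 3 or WT 7 d replicate 3, up to 0.0674). These were the 3 calls among 16 genes of prostaglandin synthesis and response.

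Of 20 immediate early and heat shock genes 6 fell, none rose and 14 were not called, with a median of -0.34. *Junb*, a component of AP-1, had 8.59, 8.64 and 8.48 at 14 d and 9.26, 9.28 and 9.41 at 7 d and fell by 0.75 (standard error 0.11, adjusted p = 0.00657, kept without any single array). *Ier3*, *Klf4*, *Nr4a1*, *Zfp36* and *Jun* fell by 1.01 to 0.43 (adjusted p = 0.0213 to 0.039), and each of these 5 was lost without WT 14 d replicate 1, WT 14 d replicate 3 or WT 7 d replicate 3, some also without others (adjusted p up to 0.146). With the 6 WT arrays alone *Junb* was the only 1 of the list called. Of 23 acute phase and NF-kappaB feedback genes 3 fell, 1 of them with the 6 WT arrays alone, *Ptgs2*, *Nfkbiz*, a nuclear inhibitor protein of this pathway (-0.76, adjusted p = 0.00853), and *Tnfaip3*, which encodes the deubiquitinase A20 (-0.47, adjusted p = 0.0108, 0.0542 without WT 14 d replicate 3, and 0.225 as the mean of its 2 probe sets).

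Of 21 genes of glycolysis and the response to low oxygen 4 fell, 2 of them with the 6 WT arrays alone, and none rose. *Ankrd37*, a target of hypoxia-inducible factor, had 7.28, 6.83 and 6.50 at 14 d and 8.61, 8.01 and 8.16 at 7 d and fell by 1.39 (standard error 0.21, adjusted p = 0.00703). *Pfkfb3*, which makes the activator of phosphofructokinase, had 7.37, 7.31 and 6.99 at 14 d and 8.05, 8.00 and 8.04 at 7 d and fell by 0.81 (adjusted p = 0.006, and 0.231 as the mean of its 2 probe sets). The lactate exporter *Slc16a3* fell by 0.83 (adjusted p = 0.0268) and *Hk2*, a hexokinase, by 0.52 (adjusted p = 0.0324). The first 2 calls were kept without any single array, *Slc16a3* was kept only without WT 7 d replicate 2, and *Hk2* was lost without WT 14 d replicate 2 or 3 or WT 7 d replicate 3 (adjusted p up to 0.126).

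Interferon-stimulated genes were the list with the most calls in 1 direction other than the one the study picked. These genes are induced through the STAT and IRF factors after interferon binds its receptor, and many bind viral RNA or block its translation. Of 25 measured members 9 fell and none rose, 24 had a negative difference, and in 19 every 14 d array lay below every 7 d array, where 10.7% of all genes did so. The median was -0.61. *Rsad2*, viperin, had 11.36, 10.74 and 11.58 at 14 d and 11.98, 12.35 and 12.60 at 7 d and fell by 1.08 (standard error 0.20, adjusted p = 0.018). *Ifit1*, which binds foreign RNA, had 9.80, 9.44 and 9.82 at 14 d and 10.39, 10.68 and 10.65 at 7 d and fell by 0.89 (standard error 0.17, adjusted p = 0.019). *Oas1a*, an RNA-sensing synthetase, had 10.70, 10.55 and 10.52 at 14 d and 11.11, 11.18 and 11.07 at 7 d and fell by 0.53 (standard error 0.10, adjusted p = 0.0194). The antiviral GTPase *Mx1* fell by 1.11 and the synthetase *Oas3* by 0.82, the signal transducer *Stat2* by 0.78, the deconjugating protease *Usp18* by 0.68, *Ifi35* by 0.64 and the transcription factor *Irf1* by 0.61 (adjusted p = 0.0256 to 0.0476). WT 14 d replicate 2 was the lowest array of the list, with a mean signal of 8.63 against 9.19 and 9.04 on the other 14 d arrays and 9.45 to 9.67 at 7 d. With the 6 WT arrays alone *Ifit1* was the only 1 of the 9 called, and without WT 7 d replicate 1 the count was 12. Each of the 9 was lost without WT 7 d replicate 2, and the highest adjusted p of any of them with 1 array left out was 0.153.

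To show what letters these genes share, promoters of the called members were searched on both strands for GAAA, any 2 bases and GAAA again, the core of the interferon-stimulated response element to which the STAT and IRF factors bind. The search was chosen after the values were seen. The promoter table gives 250 bases before to 50 after each gene start in GRCm38.p6 from RefSeq, and held 7 of the 9 genes. The motif was in 5 of these 7 and in 10 of the 19 measured members with a promoter, against 3.99% of all genes in the table. The 3 promoters below are of genes given with every array above, 5′ to 3′ on the strand of the gene, with the motif in capitals, which begins with TTTC where the match is on the other strand. *Ifit1* lies at chr19:34640639-34640938 on the plus strand, *Oas1a* at chr5:120907476-120907775 and *Rsad2* at chr12:26456403-26456702, both on the minus strand.
Ifit1: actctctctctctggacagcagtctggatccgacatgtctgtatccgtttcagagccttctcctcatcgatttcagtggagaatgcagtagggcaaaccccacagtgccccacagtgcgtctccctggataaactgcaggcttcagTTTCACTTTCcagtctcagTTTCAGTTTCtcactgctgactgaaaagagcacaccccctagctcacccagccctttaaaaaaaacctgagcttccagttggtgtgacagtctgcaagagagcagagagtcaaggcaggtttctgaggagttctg
Oas1a: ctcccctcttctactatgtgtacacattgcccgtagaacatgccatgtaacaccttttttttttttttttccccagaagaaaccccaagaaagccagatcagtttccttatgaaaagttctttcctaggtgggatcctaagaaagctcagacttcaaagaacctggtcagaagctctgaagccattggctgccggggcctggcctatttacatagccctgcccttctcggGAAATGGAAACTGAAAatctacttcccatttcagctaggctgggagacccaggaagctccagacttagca
Rsad2: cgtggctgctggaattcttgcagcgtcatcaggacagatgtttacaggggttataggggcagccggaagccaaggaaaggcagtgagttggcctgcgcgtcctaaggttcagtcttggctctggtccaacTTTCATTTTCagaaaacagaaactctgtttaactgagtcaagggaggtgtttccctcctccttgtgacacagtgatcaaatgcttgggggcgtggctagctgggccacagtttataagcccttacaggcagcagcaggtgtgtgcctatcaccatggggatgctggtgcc

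The *Ifit1* promoter held 2 matches, which begin 104 and 85 bases before the start, and that of *Oas1a* held 2 overlapping ones, 20 and 14 bases before it. *Rsad2* held 1, at 120 bases. A match describes these letters only.

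*Car4* encodes a membrane-bound carbonic anhydrase. It had 3.23, 4.05 and 3.40 at 14 d and 5.93, 6.68 and 6.14 at 7 d and fell by 2.69 (standard error 0.32, adjusted p = 0.00264), and both of its probe sets were called. Its 14 d signal lies below 4.22. *Car6*, a secreted carbonic anhydrase, had 3.89, 3.74 and 3.85 at 14 d and 6.20, 5.61 and 5.45 at 7 d and fell by 1.93 (standard error 0.19, adjusted p = 0.000854). Both calls were kept without any single array and with the 6 WT arrays alone. *Rnase2b*, an eosinophil-type ribonuclease, fell by 2.03 (adjusted p = 0.005) with 3.63, 3.43 and 4.67 at 14 d and 5.55, 6.07 and 6.21 at 7 d. *Hdc*, which makes histamine in mast cells, basophils and neutrophils, fell by 1.67 (adjusted p = 0.0245, lost without WT 14 d replicate 1 or 3 or WT 7 d replicate 2 or 3). It was the only 1 of 13 neutrophil markers called, with a list median of -0.04. Of 11 mast cell markers *Hdc* was called lower and *Kit* higher (kept only without WT 7 d replicate 2), with a list median of -0.09. Of all genes 1.98% were called higher and 1.52% lower. *Gtsf1*, known from germ cells, fell by 1.66 (adjusted p = 0.00328), *B3gnt5*, a glycosyltransferase of lactoseries lipids, by 1.53 (adjusted p = 0.00409), and *Cd55*, which limits complement on cell surfaces, by 1.49 (adjusted p = 0.0476, kept only without WT 7 d replicate 3).

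Of 23 genes of macrophage activation 3 rose, *Gas6*, *Mertk* and *Apoe*, and of 16 macrophage markers 2 rose, *Cx3cr1* and *Mertk*. None was called lower, though 1 activation gene was with the 6 WT arrays alone. Of the activation genes 10 had a negative difference, down to -1.39, and of the markers 6, down to -0.82. All 14 d arrays lay above the 7 d arrays for 5 activation genes and 3 markers, and below for 4 and 3. Of all genes 10% lay above and 10.7% below. The mean signal of 16 macrophage markers was 10.55, 10.48 and 10.43 at 14 d and 10.49, 10.31 and 10.22 at 7 d, so that the days overlapped. *Gas6*, which bridges dead cells to their receptors, had 9.40, 9.81 and 9.71 at 14 d and 8.32, 8.41 and 7.98 at 7 d, and rose 2.65-fold (adjusted p = 0.002). Its receptor gene *Mertk* rose by 0.59 (adjusted p = 0.0316, kept only without WT 7 d replicate 2) and *Apoe*, the lipid carrier, by 0.91 (adjusted p = 0.037, kept only without WT 7 d replicate 1). *Cx3cr1*, the fractalkine receptor of monocytes and macrophages, had 6.21, 6.13 and 6.32 at 14 d and 4.80, 5.09 and 5.25 at 7 d and rose by 1.17 (adjusted p = 0.00431). *Itgax*, CD11c of dendritic cells and macrophages, rose by 0.97 (adjusted p = 0.00339). It was the only 1 of 11 dendritic cell markers called, and 6 of these had a negative difference (list median -0.03). The calls of *Gas6*, *Cx3cr1* and *Itgax* were kept without any single array. *Adgre1*, a surface receptor of macrophages, chosen after its values were seen, averaged 10.08 ± 0.19 at 14 d and 9.96 ± 0.27 at 7 d (SD, n = 3 each).

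Several lists had no call. Of 29 mitosis genes none was called, yet 18 had 14 d arrays that all lay above the 7 d arrays, as did 10% of all genes, with a median difference of 0.27. Their mean signal was 6.13, 6.24 and 6.26 at 14 d and 5.96, 5.97 and 5.91 at 7 d. None of 30 DNA replication genes, 23 genes of oxidative phosphorylation, 10 of MHC class II presentation or 20 of skeletal muscle was called, with medians of 0.05, 0.08, 0.10 and 0.74. The median of the muscle list was -0.42 without WT 7 d replicate 1. *Npy*, neuropeptide Y, which the study named for its other genotype, had 4.62, 4.66 and 4.54 at 14 d and 4.48, 8.48 and 8.76 at 7 d (difference -2.63, adjusted p = 0.135). At 7 d replicate 1 lay at the level of the 14 d arrays and the other 2 far above, and without that array *Npy* was called lower (adjusted p = 2.7e-06). The study's PCR instead found *Npy* low at 7 d in both genotypes, so a fall in WT tissue is uncertain.

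The study named 25 genes for a change between these days in WT tissue, most of them picked on arrays that include these and *Adamts4* by PCR, so their count is not independent evidence. Of them 15 rose and none fell, 7 with the 6 WT arrays alone, and the median was 1.66. The study's PCR also found *Mmp2*, *Mmp3* and *Mmp9* raised over these days in WT tissue. Of the 25 genes, those not called here were *Mmp13* and 9 others. The study's array threshold was P under 0.05, with no adjustment stated, and a difference over 1 log2. It also had a further WT array of the later day. In the limma fit used here the unadjusted p was at most 0.0276 for each gene not called except *Hba-a1* (0.221). *Igfbp3*, *Igfbp4*, *Col4a2* and *Nid2* had differences of 1.92, 1.42, 1.91 and 1.79 (adjusted p = 0.0606, 0.0728, 0.0554 and 0.0823). Without WT 7 d replicate 1 the adjusted p was 0.0236 for *Igfbp3*, 0.033 for *Col4a2* and 0.0149 for *Nid2*. *Actg2*, *Marco*, *Adamts4* and *Col8a1* had differences of 1.09, 1.05, 0.53 and 1.46 (adjusted p = 0.068 to 0.253), and *Hba-a1* -0.10 at a signal of 2.46 to 2.67.

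The same days were then compared in *Mmp13*-/- tissue, on 6 arrays that share none with the WT comparison but share its fit. There 574 probe sets were called, 1.27% of those tested. Of the 1095 WT calls 1048 had the same sign (95.7%), against 62.5% of all probe sets. Called in both genotypes were 321, which is 29.3% of the WT calls and 55.9% of the *Mmp13*-/- calls, 319 of them with the same sign. *Fmod* averaged 9.46 at 14 d and 5.00 at 7 d in *Mmp13*-/- tissue (4.46, adjusted p = 0.0159), *Igfbp2* 8.37 and 4.09 (4.28, adjusted p = 0.000191), and *Il6* 4.16 and 6.30 (-2.14, adjusted p = 0.00818).

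*Ifit1* averaged 8.78 at 14 d and 10.26 at 7 d in *Mmp13*-/- tissue (-1.48, adjusted p = 0.0027) and *Car4* 3.03 and 5.96 (-2.93, adjusted p = 0.00256). *Mmp3*, with a WT rise of 2.61, averaged 9.16 at 14 d and 8.82 at 7 d in *Mmp13*-/- tissue (0.34, adjusted p = 0.836), *Galc*, the lysosomal galactosylceramidase, 8.47 and 7.92 (0.56, adjusted p = 0.846), and *Serping1* 10.96 and 10.93 (0.03, adjusted p = 0.948). In WT tissue *Galc* rose by 3.21 (adjusted p = 0.0344), with 7.92, 7.18 and 7.91 at 14 d and 6.70, 3.53 and 3.15 at 7 d, and 1 of its 3 probe sets was called. The difference between the genotypes' changes was tested as an interaction, and no probe set was called by limma (smallest adjusted p = 0.172, with 2181 probe sets or 4.84% at an unadjusted p under 0.05). No gene was thus shown on these arrays to change differently in the 2 genotypes. The study's PCR found little change of *Mmp2*, *Mmp3* and *Mmp9* over these days in *Mmp13*-/- tissue. It found all 3 significantly lower there than in WT tissue at 14 d.

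**Figure D5:**
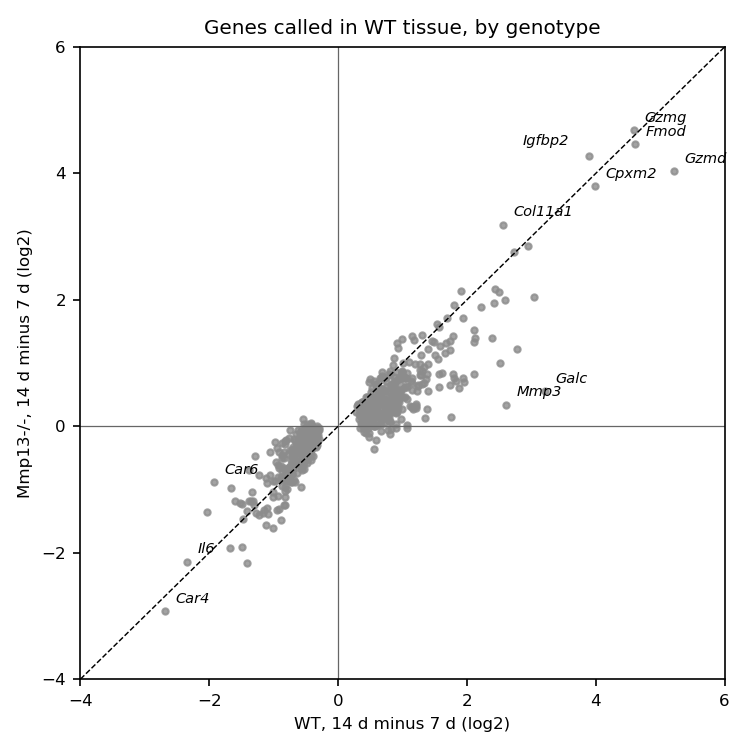
Difference between 14 d and 7 d (log2) in WT tissue (x axis) and in Mmp13-/- tissue (y axis) for the 636 genes called in WT tissue, 1 point a gene, with 10 genes of large change and Gzmg labelled. The dashed line marks equal differences, and 612 of the 636 genes have the same sign in both genotypes.

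WT 14 d replicate 4 of the second series lay on the 14 d side of every 7 d array for the genes given here. It was within the range of the other 14 d arrays only for *Fmod* and *Il6*. It had 8.79 for *Fmod*, 8.59 for *Igfbp2*, 8.10 for *Cpxm2*, 7.11 for *Eln*, 11.38 for *Col12a1* and 10.53 for *Mmp3*, and 3.18 for *Car4*, 5.53 for *Il6*, 10.46 for *Rsad2* and 9.21 for *Ifit1*. For *Gzmd* it had 4.92, below the lowest series 1 array of 14 d (5.75) and above the highest of 7 d (2.76).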

How the data were processed

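The 6 WT arrays of 14 d and 7 d in hybridization series 1 were compared. The authors checked array quality and normalized the arrays by RMA in the Chipster software (whether in 1 run is not given in the sources used here), and what they deposited is log2 signal per probe set with 2 decimals. With R 4.3.3 and limma 3.58.1, lmFit and eBayes were run on the 12 arrays of series 1 with 4 group means (8 residual and 3.63 prior degrees of freedom), with Benjamini-Hochberg adjustment over 45037 probe sets. No filter on signal was applied. Of these probe sets 34945 have 1 gene symbol in the array annotation, 932 have several and were not named, and 9160 are unnamed here. Genes without a probe set of their own were not analysed here. The number of arrays limits the precision. The members, the 50 gene lists (35 of pathways and 15 of cell type markers) and the tests were chosen with earlier results of these data known. Genes to name were taken from the 15 largest called rises and falls and from each list, up to 4 members by unadjusted p. Also taken were the genes the study named, *Mmp13*, *Il6*, *Npy* and genes marked as chosen after their values were seen. Called list members were taken too, and those beyond 4 in a list were chosen after their values were seen. Not every gene so taken is named in the text, and some lists with calls are not described. Alternatives were other sets of arrays, other scaling, a filter on dim probe sets, an intensity trend, a replicate block, the mean over a gene's probe sets and single arrays left out. The fit was tested on simulated data. Planned promoter searches needed 5 called members in 1 direction in the mitosis, contractile or chemokine lists and were not run, and RefSeq promoters (GRCm38.p6) were used for the interferon list.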

Additional observations from a re-analysis of the deposited data

How the results depend on the processing

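The count of 1095 called probe sets was 285 with the 6 WT arrays alone. It was 193 with WT 14 d replicate 4 added, 3 arrays against 4 with no series term, although that array differs in RNA amount and kit. Both fits hold fewer arrays than the main fit, and what lowered these counts was not tested. Without single arrays it ran from 397 (without WT 14 d replicate 3) to 1554 (without WT 7 d replicate 1), where 49% of the calls were higher against 59% with all arrays. With WT 14 d replicate 1 or 2 left out it was 506 and 604, and without WT 7 d replicate 2 or 3 it was 719 each. Non-overlapping probe sets numbered 4891 with replicate 4 added, and 11188 to 15475 without single arrays, against 7827. By the design text each array is of its own mouse, so the replicate numbers were not taken as pairs. Deviations of same-numbered arrays correlated at 0.286, -0.0322 and 0.376, and whether arrays of a replicate number share another source was not tested. With the number as a replicate block 1235 probe sets were called, 948 of them among the 1095. The count past 1 log2 at an unadjusted p under 0.05 was 418 (307 higher and 111 lower) and ran from 349 to 493 over its alternatives, with 235 higher and 218 lower without WT 7 d replicate 1. None of the 135 genes followed through the alternatives changed sign in any of them. Of the 124 called among them, 30 kept the call in all alternatives that gave a value, and 76 lost it with the 6 WT arrays alone. With the mean over all probe sets of a gene, adjusted over genes, 15 lost it, among them *Egfr*, *Igf1r*, *Itga8*, *Eng*, *Cd55*, *Galc*, *Stat2* and *Ifi35*.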

Other observations

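Genes of 3 further groups were chosen after their values were seen, and no test of the groups was made. Other members of these groups were not counted, so the number of genes given says nothing about a group. Of all genes 1.98% were called higher. From iron and heme handling 3 genes called higher at 14 d are given. *Slc40a1*, the iron exporter ferroportin, had 8.41, 8.12 and 9.28 at 14 d and 6.38, 7.60 and 6.63 at 7 d, a rise of 1.73 (adjusted p = 0.0353 from limma, 0.0666 without WT 7 d replicate 1, lost too without WT 14 d replicate 1 or 3 or WT 7 d replicate 3). *Slc48a1*, a heme transporter of the lysosome, rose by 0.90 (adjusted p = 0.00202) with 9.32, 9.16 and 9.07 at 14 d and 8.36, 8.34 and 8.14 at 7 d, and its call was kept without any single array. *Hmox1*, which breaks heme down, rose by 1.01 (adjusted p = 0.0305, kept only without WT 7 d replicate 1).

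Of genes best known from axon guidance, several of which also act in vessels, 5 are given here, all called higher. *Slit2*, a repulsive ligand, had 7.87, 7.75 and 7.72 at 14 d and 5.26, 6.39 and 5.05 at 7 d, a rise of 2.21 (adjusted p = 0.00339), and its receptor gene *Robo1* rose by 0.87 (adjusted p = 0.0112, 1 of 3 probe sets called and 1 of the other sign). The receptor genes *Epha4* (0.99, adjusted p = 0.00497) and *Unc5b* (0.77, adjusted p = 0.00647) were kept without any single array, as were *Slit2* and *Robo1*. *Epha3* rose by 2.41 (adjusted p = 0.0166, 0.0646 without WT 14 d replicate 3).

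Of hyaluronan turnover, *Has1*, a synthase, had 5.71, 6.46 and 5.56 at 14 d and 7.65, 6.93 and 7.22 at 7 d and fell by 1.36 (adjusted p = 0.0228). *Cemip*, needed for hyaluronan breakdown, had 8.38, 8.18 and 7.86 at 14 d and 4.70, 6.82 and 6.51 at 7 d and rose by 2.13 (adjusted p = 0.034). *Has1* was lost without WT 14 d replicate 1 or 3 or WT 7 d replicate 3 and *Cemip* without any 1 of the 14 d arrays.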
